A study of Homo sapiens with 33 samples.

Results

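The step described here is the change in gene expression of uninduced cells between day 4 and day 6 of a gonadal differentiation protocol. It compares 3 day 6 CTRL libraries with 3 day 4 libraries, which are 6 of the 33 bulk RNA-seq libraries of the study. All 58735 genes of the deposited count table belong to the comparison by rule. Of these, 25565 had no count in the 6 libraries, 14860 had a count but were too low to be tested, and 18310 were tested.

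The cells were clone 24 of H9-DDdCas9VP192-FOXL2, a derivative of H9, a human embryonic stem cell line, in which a dead Cas9 fused to an activator can switch on FOXL2 once doxycycline (DOX) and trimethoprim (TMP) are given. Day 4 and CTRL cells carried this activator and its guide RNAs but had received neither drug. Before day 4, the cells had first received activin A together with dorsomorphin, an inhibitor of BMP signalling, then BMP7, and then dorsomorphin again. The GSK3 inhibitor CHIR-99021, which activates WNT signalling, was present throughout. From day 4 on, CTRL cells were kept in the basal intermediate mesoderm (IM) medium alone. The comparison therefore spans both the passage of 2 days and the removal of CHIR-99021 and dorsomorphin, which cannot be told apart in this design. The 3 libraries of a group are technical replicates of 1 differentiation of 1 clone, so every p-value measures only the spread between such replicates.

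WNT, FGF and Nodal signals keep cells of the primitive streak and the presomitic mesoderm in a transient state, and the transcription factors TBXT, MSGN1, TBX6 and the CDX family mark that state. As mesoderm leaves the streak, it divides into paraxial, intermediate and lateral plate mesoderm. The coelomic epithelium, the source of the gonadal somatic cells, arises at the border of the latter ones and expresses WT1 and GATA4. Feedback genes such as AXIN2, SP5 and LGR5 for WNT, DUSP6 and SPRY4 for FGF, and the ID genes for BMP are commonly used to read the activity of these pathways.

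The library totals ranged from 30897500 to 43346552 counts. FOXL2 was near the limit of detection in all 6 libraries, with 0.364, 0.381 and 0.388 CPM (counts of a gene scaled to the size of each library) at day 4 and 0.272, 0.319 and 0.0481 CPM in day 6 CTRL (adjusted p = 0.443, by the quasi-likelihood test of edgeR, with the Benjamini-Hochberg method over all genes tested, as for each adjusted p below). Day 4 replicate 3 stood apart from the other day 4 libraries. Mitochondrially encoded genes took 1.14% of its counts against 3.33% and 4.28%, and its chi-square statistic per gene was 71.4 and 128 against replicates 1 and 2, where these differed from each other by 17.4.

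Of the 18310 genes tested, 21.6% were called at an adjusted p under 0.05, 11.0% as higher and 10.6% as lower at day 6. These shares are the background for the counts of each list below. The numbers of genes in both directions were similar, but the sizes were not. The median absolute log2 fold change was 1.07 for genes that rose and 0.722 for genes that fell. At least 4-fold changes (2 on the log2 scale) were called for 459 genes that rose and 163 that fell, and changes of at least 5 on the log2 scale for 60 and 7. The median over all genes tested was 0.000372, a value that the scaling of the libraries sets near 0. The libraries of the groups did not overlap for 39.4% of the genes tested. The count of calls fell to 2312 without day 4 replicate 1 and to 2464, 2520 and 2353 without day 6 CTRL replicate 1, 2 or 3, whereas without day 4 replicate 3 it was 5673.

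**Figure D1:**
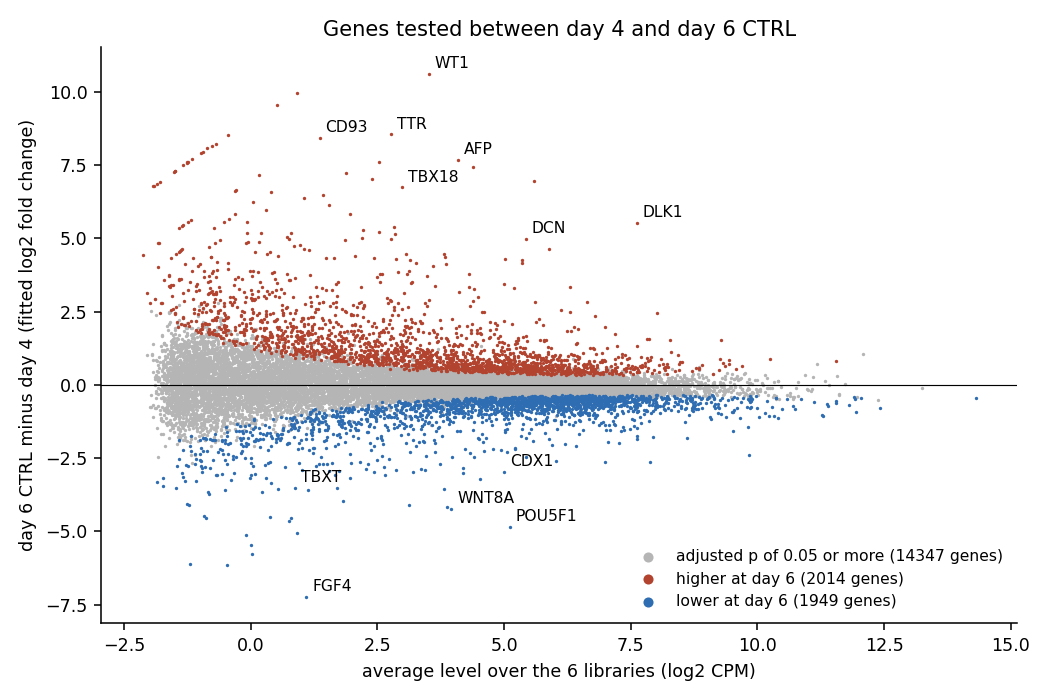
Fitted log2 fold change of day 6 CTRL over day 4 against the average level of each gene tested, with 2014 genes called higher in red and 1949 called lower in blue. The genes farthest from 0 lie mostly above the line, and diagonal rows at the left are genes with almost no count in one of the groups, whose fitted value is not a measured size.

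Feedback and target genes of the WNT pathway fell as a group. Of the 20 listed genes, 17 were tested, 10 were called lower and 1 higher, with a median log2 fold change of -0.66. LEF1, a transcription factor that binds beta-catenin, had 579, 626 and 520 CPM at day 4 and 240.5, 235, and 240.2 CPM at day 6. The groups did not overlap, and the log2 fold change was -1.27 (SE 0.12, adjusted p = 3.24e-05, edgeR). LGR5, a receptor of R-spondins, had 40.4, 47.4 and 35.5 CPM at day 4 and 9.71, 12.7 and 9.73 CPM at day 6, a log2 fold change of -1.95 (SE 0.17, adjusted p = 2.09e-05, edgeR).

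DKK1, a secreted WNT antagonist that is itself a WNT target, had 80.1, 115 and 47.6 CPM at day 4 and 19.7, 23.8 and 21.4 CPM at day 6, so that day 4 varied more than day 6. Its log2 fold change was -1.91 (SE 0.26, adjusted p = 0.000517, edgeR). RNF43, which removes WNT receptors from the cell surface, and NOTUM, a secreted enzyme that inactivates WNT ligands, fell by 0.97 and 1.55 on the log2 scale (SE 0.21 and 0.2, adjusted p = 0.00754 and 0.000288, edgeR). AXIN2, the scaffold of the complex that degrades beta-catenin, had 76.9, 71.9 and 100 CPM at day 4 and 67.4, 46.5 and 61.6 CPM at day 6. The change was smaller than that of the genes above (log2 fold change -0.51, SE 0.17, adjusted p = 0.048, edgeR) and its call was lost without any single library other than day 4 replicate 2, with adjusted p up to 0.198. NKD1, another feedback inhibitor, had overlapping groups (99.6, 120 and 103 against 110, 83.7 and 98.6 CPM, adjusted p = 0.482, edgeR).

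SP5, a zinc finger factor, is shown by sequence because it was the only gene called in the WNT list whose RefSeq promoter window, where one was at hand, held the TCF/LEF motif CTTTGAT on either strand. The stretch lies upstream of the gene, at chr2:170715201-170715260 on the plus strand of GRCh38.p14, with the motif in capitals starting 109 bases before the RefSeq start site.
SP5: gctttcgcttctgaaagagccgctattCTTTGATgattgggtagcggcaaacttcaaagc
This motif was present in 2.64% of all 27305 RefSeq windows of 300 bases. SP5 itself had 51.6, 55.8 and 45.6 CPM at day 4 and 27.3, 24.1 and 23.4 CPM at day 6. The groups did not overlap, and the log2 fold change was -1.04 (SE 0.14, adjusted p = 0.00036, edgeR). The match is a description of the letters in this window and not evidence of binding.

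The ligands and secreted modulators of the WNT pathway did not follow the target genes. Among 15 ligands tested, 4 rose and 3 fell. WNT8A, a ligand of the streak, had 37.5, 28.3 and 29.5 CPM at day 4 and 1.36, 1.6 and 2.14 CPM at day 6 (log2 fold change -4.22, SE 0.22, adjusted p = 6.85e-07, edgeR). WNT5B, a ligand of the non-canonical branch, fell by 1.24 on the log2 scale (adjusted p = 0.00409, edgeR).

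WNT1, a ligand of the dorsal neural tube, rose from 3.35, 3.29 and 2.04 CPM to 23.3, 21.1 and 20.2 CPM (log2 fold change 2.89, SE 0.22, adjusted p = 6.67e-06, edgeR). WNT2, a ligand of splanchnic and cardiac mesoderm, had no count at day 4 and 2.57, 3.57 and 2.43 CPM at day 6, at least 27.6-fold higher against a floor of 3 counts per library. WNT3A was the only member of the streak list that rose (1.56 on the log2 scale, adjusted p = 0.000958, edgeR). Among 13 secreted antagonists and agonists tested, 7 rose and none fell by edgeR, with a median log2 fold change of 1.11, and none of the 13 was lower at an unadjusted p under 0.05. CER1, an antagonist of Nodal, BMP and WNT ligands chosen here after its values were seen, was too low to be tested with all libraries (0.582, 0.277 and 1.29 against 0, 0.186 and 0.168 CPM). It was called lower by DESeq2, without the low-count filter and without day 4 replicate 2. FRZB, which binds WNT ligands outside the cell, had 24.9, 19.03 and 34.7 CPM at day 4 and 164.5, 175 and 228 CPM at day 6 (log2 fold change 2.85, SE 0.21, adjusted p = 6.45e-06, edgeR). SOST, an antagonist that binds the WNT co-receptors, and SFRP1, of the FRZB family, rose by 4.32 and 1.11 on the log2 scale (adjusted p = 2.01e-05 and 0.00011, edgeR).

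**Figure D2:**
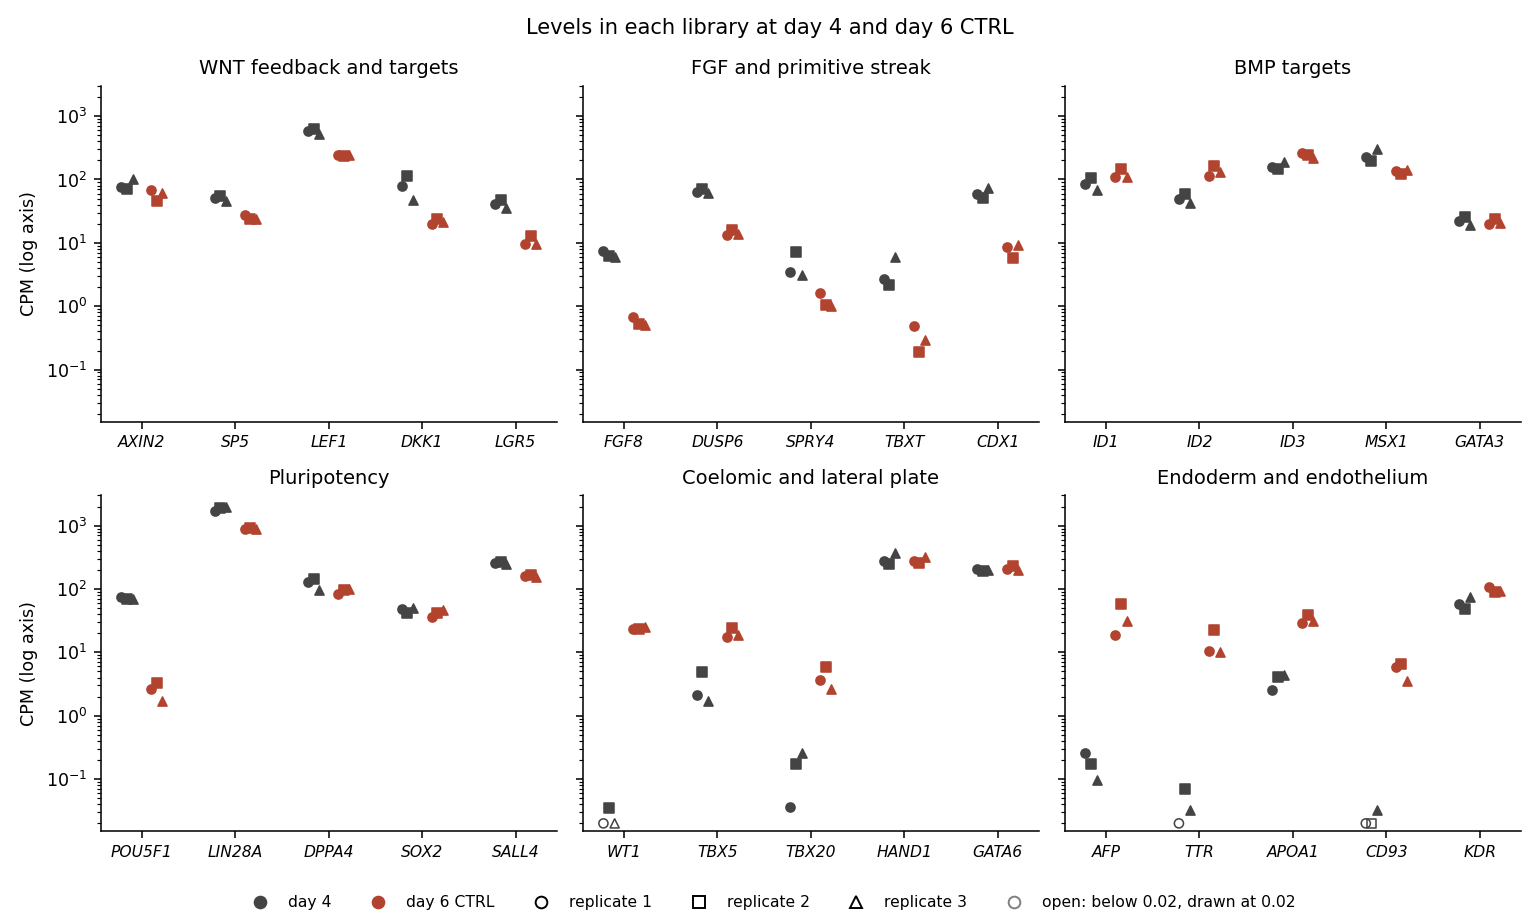
CPM on a log axis in each of the 3 day 4 and 3 day 6 CTRL libraries for 30 genes in 6 panels, with the replicate number given by the marker. FGF8, DUSP6, POU5F1 and LGR5 sit lower at day 6 in every library, WT1, TBX20, AFP and TTR sit higher, and SOX2, HAND1, GATA6 and GATA3 overlap between the days.

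Genes of the FGF pathway fell as well. All 20 listed FGF and ERK feedback genes were tested, 13 were called lower and 1 higher, and the median log2 fold change was -1.12. FGF8, a ligand of the streak and tail bud, had 7.45, 6.10 and 5.88 CPM at day 4 and 0.665, 0.532 and 0.505 CPM at day 6 (log2 fold change -3.52, SE 0.28, adjusted p = 9.36e-06, edgeR). FGF17, a ligand of the same subfamily, fell by 4.10 on the log2 scale (SE 0.23, adjusted p = 9.69e-07, edgeR). FGF4 had 399 counts over the day 4 libraries and 3 over the day 6 libraries, a ratio of 0.00585 (95% exact counting interval 0.0012 to 0.0172).

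DUSP6, the phosphatase that switches off ERK, had 62.6, 70.8 and 61.4 CPM at day 4 and 13.5, 16.02 and 14.0 CPM at day 6. The groups did not overlap (log2 fold change -2.17, SE 0.14, adjusted p = 2.26e-06, edgeR). The Sprouty inhibitors SPRY4 and SPRY1 fell by 1.92 and 1.26 on the log2 scale (adjusted p = 0.00422 and 0.000487, edgeR). DUSP4, a related nuclear phosphatase, was the exception and rose by 1.09 (SE 0.18, adjusted p = 0.00141, edgeR).

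BMP target genes moved less uniformly. All 18 were tested, 7 rose, 2 fell, and the median log2 fold change was 0.46. The number called higher was 4 without day 4 replicate 1 or day 6 CTRL replicate 1. ID2, an inhibitor of basic helix-loop-helix factors, had 49.6, 59.1 and 42.8 CPM at day 4 and 114, 161 and 131 CPM at day 6 (log2 fold change 1.42, SE 0.16, adjusted p = 0.000147, edgeR). ID3 of the same family had 159.5, 145 and 188 CPM at day 4 and 258, 246 and 219 CPM at day 6 (log2 fold change 0.55, SE 0.13, adjusted p = 0.0114, edgeR), a call lost without day 4 replicate 1 or day 6 CTRL replicate 1 (adjusted p up to 0.0667). ID1 did not pass the test (0.49, SE 0.17, adjusted p = 0.0604, edgeR), although its libraries did not overlap, and passed it by DESeq2, without the low-count filter, with a replicate block and without day 4 replicate 2.

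The log2 fold change of ID4 was -0.00058 (SE 0.14). The homeobox gene MSX1 went the other way, from 227, 197 and 303 CPM to 134, 119.9 and 141 CPM (log2 fold change -0.88, SE 0.16, adjusted p = 0.00229, edgeR). SMAD6, an intracellular BMP inhibitor, had 80.7, 63.5 and 109.9 against 119, 122 and 101.5 CPM and was not called (adjusted p = 0.112, edgeR). It passed the test without the low-count filter and without day 4 replicate 3. TBX2, a T-box repressor induced by BMP in the heart and limb, had the largest change of the list, from 3.16, 1.77 and 5.04 CPM to 71.9, 66.7 and 59.5 CPM (log2 fold change 4.30, SE 0.29, adjusted p = 3.46e-06, edgeR). Of 18 BMP ligands and antagonists, 2 rose and 4 fell. DESeq2 called 6 lower. With 1 library left out, the number called higher was 4 without day 4 replicate 3 and 1 without day 4 replicate 1 or any day 6 CTRL library, and the number called lower was 2 without day 6 CTRL replicate 1 or 3. GREM1, a secreted BMP antagonist, fell from 52.3, 54.7 and 56.5 CPM to 11.0, 11.6 and 12.8 CPM (log2 fold change -2.22, SE 0.13, adjusted p = 1.74e-06, edgeR).

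The other signalling lists had calls in both directions, against 21.6% of all genes. Notch genes had 2 called higher and 4 lower of 18, Hedgehog genes 3 and 1 of 12, retinoic acid genes 3 and 4 of 18, and Nodal and activin genes 3 and 1 of 9. Without day 4 replicate 3, Notch genes had 4 called higher. Without any other library they had 1 higher, and the number lower was 2 without day 4 replicate 1 or day 6 CTRL replicate 2 or 3. The number of Nodal and activin genes called lower was 2 by DESeq2 and without day 4 replicate 2. The ligand SHH was higher at day 6 (0.873, 0.693 and 0.129 against 4.20, 9.10 and 4.93 CPM, log2 fold change 3.43, adjusted p = 0.000914, edgeR). CRABP2, a carrier of retinoic acid, fell from 1227, 1007 and 1289 CPM to 436, 335 and 409 CPM (log2 fold change -1.58, SE 0.15, adjusted p = 2.79e-05, edgeR), whereas its paralog CRABP1 rose by 1.01 (adjusted p = 0.000457, edgeR). DLL3, a Notch ligand of the presomitic mesoderm, fell by 1.82 (SE 0.18, adjusted p = 4.78e-05, edgeR).

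Genes of the primitive streak and the presomitic mesoderm had the lowest median of the lists examined. Of 19 tested, 15 fell and 1 rose, with a median log2 fold change of -1.82. CDX1, a posterior homeobox factor, had 58.4, 51.5 and 74.0 CPM at day 4 and 8.59, 5.69 and 9.40 CPM at day 6 (log2 fold change -2.96, SE 0.21, adjusted p = 3.70e-06, edgeR). TBXT, the factor that defines the streak, was already low at day 4, with 2.65, 2.15 and 6.08 CPM, and had 0.484, 0.186 and 0.288 CPM at day 6 (log2 fold change -3.51, SE 0.5, adjusted p = 0.000623, edgeR).

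MESP1, a factor of nascent mesoderm, had 7.71, 4.37 and 9.89 CPM at day 4 and 1.54, 1.17 and 0.769 CPM at day 6 (log2 fold change -2.67, SE 0.36, adjusted p = 0.000385, edgeR). TBX6, which specifies paraxial mesoderm, fell by 1.82 (SE 0.42, adjusted p = 0.00978, edgeR), a call lost without day 4 replicate 1 or day 6 CTRL replicate 3 (adjusted p up to 0.0536). EOMES, the factor of early streak and endoderm, had at most 0.589 CPM on either day and was not tested.

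The pluripotency list also fell, with 11 of 15 tested genes lower and a median of -0.85. None was higher by edgeR, at an unadjusted p under 0.05 either, or by DESeq2. POU5F1 (OCT4), at chr6:31164337-31180731 in the GRCh38 table, had 75.7, 70.4 and 69.4 CPM at day 4 and 2.63, 3.27 and 1.68 CPM at day 6 (log2 fold change -4.84, SE 0.22, adjusted p = 2.64e-07, edgeR). Near-identical copies of this gene exist, so its reads could have been split in counting. LIN28A, an RNA-binding protein of stem cells, fell from 1728, 1915 and 1931 CPM to 871, 932 and 899 CPM (log2 fold change -1.05, SE 0.12, adjusted p = 0.000129, edgeR).

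DNMT3B, a DNA methyltransferase, and SALL4 fell by 0.96 and 0.68 (adjusted p = 0.000385 and 0.00125, edgeR). SOX2, a factor shared by stem cells and neural progenitors, overlapped between the groups (47.8, 41.5 and 49.9 against 36.4, 41.5 and 46.3 CPM, adjusted p = 0.428, edgeR). ESRG, a non-coding RNA of pluripotent cells, fell by 3.97 (SE 0.41, adjusted p = 5.92e-05, edgeR). NANOG had at most 0.24 CPM in any of the 6 libraries and was not tested.

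Day 4 is named as the IM stage by the protocol, and the levels of its defining genes are given gene by gene. CPM are not scaled for gene length, so they do not rank these genes. LHX1 had 68.8, 64.0 and 66.8 CPM at day 4, OSR1 between 6.11 and 7.52 CPM and PAX2 between 2.25 and 3.49 CPM. PAX8 had at most 0.218 CPM and was too low to be tested. Of 16 genes of the intermediate mesoderm and nephron progenitor list that were tested, 5 fell and 2 rose. Of all genes, 10.6% fell and 11.0% rose. LHX1 fell to 24.2, 16.6 and 18.6 CPM (log2 fold change -1.76, SE 0.15, adjusted p = 2.01e-05, edgeR). PAX2 and SALL1, both regulators of kidney development, fell by 1.46 and 1.36 (SE 0.34 and 0.19, adjusted p = 0.0096 and 0.000592, edgeR), and OSR1 did not pass the test (-0.12, SE 0.25, adjusted p = 0.78, edgeR). SIM1 and GFRA1, the receptor of GDNF, were the listed genes that rose. SIM1 had 1 count over the day 4 libraries and 246 over the day 6 libraries, a ratio of 191 (95% exact counting interval 34.0 to 7584).

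Coelomic epithelium genes moved up, but as a part of the list. Of 17 tested, 8 rose and 1 fell, and the median log2 fold change was 0.66. WT1, a zinc finger factor required for the gonad and the kidney, at chr11:32387775-32435630 in the same table, had 0, 0.0347 and 0 CPM at day 4 and 23.7, 23.6 and 25.3 CPM at day 6. This was 1 count over the day 4 libraries against 2725 over the day 6 libraries, a ratio of 2119 (95% exact counting interval 379.9 to 83710, adjusted p = 5.2e-08, edgeR). Among protein-coding genes past the threshold, with non-overlapping groups and an average level of 1 or more on the log2 CPM scale, WT1 had the largest fitted fold change.

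CALB2 (calretinin), a marker of mesothelium, rose from 0.545, 0.97 and 1.00 CPM to 9.31, 9.39 and 7.21 CPM (log2 fold change 3.35, SE 0.29, adjusted p = 1.54e-05, edgeR). BNC1, a zinc finger factor of mesothelium, had 67.0, 67.6 and 61.4 CPM at day 4 and 136, 121 and 119 CPM at day 6 (log2 fold change 0.94, SE 0.12, adjusted p = 0.000265, edgeR). NR2F2 (COUP-TFII), a nuclear receptor of mesenchyme, rose by 0.95 (SE 0.17, adjusted p = 0.00251, edgeR). TCF21 rose by 0.66 (adjusted p = 0.0377, edgeR), a call lost without day 4 replicate 1 or 3 or day 6 CTRL replicate 1 or 2 (adjusted p up to 0.132).

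Other genes of the coelomic list were level or near the limit of detection. GATA6 had 208, 190 and 199.5 CPM at day 4 and 209, 229 and 201 CPM at day 6 (adjusted p = 0.615, edgeR). EMX2, a homeobox factor of the early gonad, had between 0.312 and 0.905 CPM in the 6 libraries (adjusted p = 0.932, edgeR). NR5A1, the factor of steroidogenic gonadal cells, had at most 0.16 CPM and was not tested. NR0B1, an orphan nuclear receptor that represses NR5A1 activity, was the listed gene that fell, from 23.4, 19.1 and 17.0 CPM to 4.87, 2.71 and 3.58 CPM (log2 fold change -2.42, SE 0.24, adjusted p = 3.87e-05, edgeR).

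In the lateral plate list, 8 of 15 tested genes rose and 1 fell (median 0.67). TBX5, a T-box factor of heart and forelimb, had 2.11, 4.82 and 1.71 CPM at day 4 and 17.5, 24.2 and 18.96 CPM at day 6 (log2 fold change 2.81, SE 0.34, adjusted p = 0.000197, edgeR). TBX20, of the same family, had 0.0364, 0.173 and 0.259 CPM at day 4 and 3.66, 5.93 and 2.60 CPM at day 6 (log2 fold change 4.64, SE 0.53, adjusted p = 0.00014, edgeR). GATA5, MEF2C and FOXF2, which act in heart and gut mesenchyme, rose by 1.5, 2.40 and 1.16 (adjusted p = 4.75e-05, 5.45e-05 and 0.0018, edgeR). HAND1, which was at 277, 245 and 374 CPM at day 4, was at 275, 256 and 322 CPM at day 6 (adjusted p = 0.778, edgeR). PRRX1, a limb bud factor, fell by 0.99 (SE 0.13, adjusted p = 0.000278, edgeR).

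TBX18, a factor of the somite, epicardium and urogenital mesenchyme, rose from 0.364, 0.104 and 0 CPM to 17.0, 17.1 and 15.6 CPM (log2 fold change 6.75, SE 0.49, adjusted p = 5.63e-06, edgeR). In the somite list that holds it, 3 of 11 tested genes rose and 3 fell, against 11.0% higher and 10.6% lower of all genes. TCF15, a factor of epithelial somites, fell by 1.43 (adjusted p = 0.0122, edgeR), but not without day 6 CTRL replicate 1 (adjusted p = 0.0705), and PAX3 and MEOX1 did not pass the test (adjusted p = 0.558 and 0.997, edgeR). Among 18 cardiac and smooth muscle genes, 5 rose and 4 fell. The number higher was 3 without day 4 replicate 1 or day 6 CTRL replicate 1 or 3, and the number lower was 2 without day 4 replicate 1 or any day 6 CTRL library. MYL7, the atrial myosin light chain, rose from 82.4, 73.8 and 60.9 CPM to 284, 245.5 and 194 CPM, whereas ACTC1, cardiac actin, fell from 147, 149.7 and 141 CPM to 48.1, 44.5 and 44.3 CPM (log2 fold changes 1.73 and -1.68, adjusted p = 3.70e-05 and 3.38e-06, edgeR).

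The lists of endothelial, endoderm and neural genes are described next. In bulk RNA, more cells of a type and more RNA per cell cannot be told apart. Of 13 endothelial genes tested, 10 rose and the median log2 fold change was 1.86. None was lower by edgeR, at an unadjusted p under 0.05 either, or by DESeq2. CD93, a surface protein of endothelium, is not in this list and was named for the size of its change. It had 1 count over the day 4 libraries and 581 over the day 6 libraries, a ratio of 452 (95% exact counting interval 80.8 to 17870), with 5.81, 6.47 and 3.51 CPM at day 6. TEK, the receptor of angiopoietins, rose from 2.98, 2.98 and 4.43 CPM to 15.9, 13.5 and 12.7 CPM (log2 fold change 2.01, SE 0.22, adjusted p = 8.25e-05, edgeR). The ETS factors ERG and FLI1, which direct endothelial genes, rose by 4.52 and 4.34 (adjusted p = 5.01e-05 and 0.000598, edgeR). KDR, a VEGF receptor that is also on mesoderm progenitors, was already at 57.4, 48.4 and 75.8 CPM at day 4 and rose by 0.67 (adjusted p = 0.012, edgeR), a call lost without day 4 replicate 1 or day 6 CTRL replicate 1 (adjusted p up to 0.0685).

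The definitive endoderm list split. Of 13 tested, 6 rose and 3 fell, and 1 was called lower without day 4 replicate 1 or day 6 CTRL replicate 1 or 3. The genes that rose included secreted proteins of yolk sac and fetal liver. AFP (alpha-fetoprotein) had 0.255, 0.173 and 0.097 CPM at day 4 and 18.7, 58.4 and 31.4 CPM at day 6 (log2 fold change 7.68, SE 0.53, adjusted p = 5.68e-06, edgeR). FGB, the fibrinogen beta chain, is not in this list and was named for the size of its change. It had 0.255, 0.312 and 0.194 CPM at day 4 and 28.5, 68.0 and 36.3 CPM at day 6 (log2 fold change 7.43, SE 0.42, adjusted p = 1.06e-06, edgeR). TTR (transthyretin) had 3 counts over the day 4 libraries and 1607 over the day 6 libraries, a ratio of 416.5 (95% exact counting interval 142 to 2022).

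Day 6 CTRL replicate 2 was the highest library of AFP, FGB and TTR at day 6. The apolipoproteins APOA1 and APOA2 rose by 3.16 and 2.12 (adjusted p = 3.59e-06 and 0.0012, edgeR). Factors of the list went both ways, with SOX17 and HNF4A called higher and CDX2, FOXA2 and FOXA3 lower. The SOX17 call (adjusted p = 0.00466, edgeR) was lost in 1 fit over 33 libraries (adjusted p = 0.112, edgeR). CDX2, which is also in the streak list, and FOXA2 fell by 1.20 and 0.94 (adjusted p = 0.00282 and 0.0484, edgeR). The FOXA2 call was lost without day 4 replicate 1 or 2 or day 6 CTRL replicate 1 or 3 (adjusted p up to 0.183) and in 1 fit over 33 libraries (adjusted p = 0.248, edgeR), and the groups overlapped.

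Epithelial and endoderm genes also varied among the libraries of a day. The summed level of the 14 endoderm genes was 210, 303 and 183 CPM at day 4 and 219, 396 and 222 CPM at day 6, so that replicate 2 was highest on both days. CDH1 (E-cadherin) had 22.2, 50.9 and 10.3 CPM at day 4 and 23.6, 51.6 and 22.5 CPM at day 6 (adjusted p = 0.809, edgeR). CDH2 (N-cadherin) overlapped as well (adjusted p = 0.935, edgeR). Without day 6 CTRL replicate 2, the endoderm list had 5 genes called higher and 3 lower.

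Of 17 neural and neural crest genes tested, 6 rose and 4 fell, and the median log2 fold change was 1.36. SOX10, a factor of neural crest, had 1.02, 2.53 and 0.711 CPM at day 4 and 36.8, 20.2 and 30.4 CPM at day 6 (log2 fold change 4.35, SE 0.4, adjusted p = 3.24e-05, edgeR). TFAP2B, an AP-2 factor of neural crest and kidney, had 0.145, 0 and 0.0323 CPM at day 4 and 14.3, 8.81 and 13.1 CPM at day 6 (log2 fold change 7.62, SE 0.5, adjusted p = 2.67e-06, edgeR). FOXD3 and its antisense transcript FOXD3-AS1 rose by 3.37 and 4.42 (adjusted p = 3.70e-05 and 5.71e-06, edgeR). The libraries did not keep strand, so reads from overlapping parts of such a pair cannot be told apart.

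The crest genes were lowest in day 6 CTRL replicate 2, where SOX10, TFAP2B and FOXD3 had 20.2, 8.81 and 17.6 CPM. Other neural genes of the list went both ways, with PAX6 and SOX1 called higher and NES, OTX2, STMN2 and ZIC2 lower. OTX2, a forebrain factor, fell by 1.13 (SE 0.17, adjusted p = 0.000926, edgeR). STMN2, a neuronal microtubule protein, fell from 29.2, 51.3 and 9.12 CPM to 1.66, 1.38 and 1.95 CPM (log2 fold change -4.17, SE 0.58, adjusted p = 0.00139, edgeR). Of the 15 blood genes, 12 were too low to be tested, among them all globin genes listed.

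Of 23 interstitial matrix genes tested, 7 rose and 5 fell, against 11.0% higher and 10.6% lower of all genes. The number higher was 4 without day 4 replicate 1 or day 6 CTRL replicate 1 and 10 without day 4 replicate 3. DCN (decorin) had 2.65, 1.32 and 4.49 CPM at day 4 and 93.0, 64.8 and 111 CPM at day 6 (log2 fold change 4.98, SE 0.37, adjusted p = 1.35e-05, edgeR). POSTN (periostin) rose from 18.6, 14.9 and 12.2 CPM to 130.0, 160.2 and 175 CPM (log2 fold change 3.35, SE 0.18, adjusted p = 9.23e-07, edgeR). ELN (elastin) and COL6A3 fell by 3.22 and 1.80 (SE 0.26 and 0.21, adjusted p = 1.09e-05 and 0.000143, edgeR).

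The imprinted gene DLK1, a membrane protein related to the Notch ligands, rose from 9.16, 7.49 and 10.3 CPM to 527, 316.5 and 406 CPM (log2 fold change 5.53, SE 0.22, adjusted p = 9.39e-08, edgeR). SHISA3, an endoplasmic reticulum protein that holds back WNT and FGF receptors, rose from 0.436, 0.936 and 1.07 CPM to 105, 102 and 103 CPM (log2 fold change 6.97, SE 0.23, adjusted p = 3.57e-08, edgeR). PTGER4, a prostaglandin E2 receptor, had 7 counts over the day 4 libraries and 1225 over the day 6 libraries, a ratio of 136 (95% exact counting interval 65.8 to 339). Of 21 basement membrane genes tested, 4 rose and 6 fell, against 11.0% higher and 10.6% lower of all genes. The number lower was 3 without day 6 CTRL replicate 3.

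HOX genes are arranged in clusters, in which position follows the order of expression. Genes of paralog groups 1 to 4, which are expressed first and most anteriorly, had 4 called higher and 1 lower of 12. HOXB1, the earliest of them, fell from 381, 359 and 269.6 CPM to 248, 189 and 184 CPM (log2 fold change -0.71, SE 0.16, adjusted p = 0.0103, edgeR), a call lost without day 4 replicate 1 or day 6 CTRL replicate 3 (adjusted p up to 0.0616) and in 1 fit over 33 libraries (adjusted p = 0.185, edgeR). HOXA3 and HOXC4 rose by 1.70 and 1.5 (adjusted p = 0.000197 and 0.000228, edgeR). In paralog groups 5 to 9, 10 genes were tested, all had positive log2 fold changes, 4 were called higher and the median was 0.93.

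Genes of groups 5 to 9 differed among the day 4 libraries. HOXB9 had 23.3, 14.1 and 58.3 CPM at day 4 and 53.7, 27.1 and 68.2 CPM at day 6 (adjusted p = 0.408, edgeR), so that day 4 replicate 3 overlapped with day 6. HOXB8 had 7.85, 5.34 and 16.5 against 18.2, 10.8 and 24.1 CPM (adjusted p = 0.158, edgeR). For both genes, replicate 3 was highest and replicate 2 lowest on each day. Both were called with a replicate block, and HOXB8 also without the low-count filter and without day 4 replicate 3. Without day 4 replicate 3, 10 of the 15 listed genes of groups 5 to 9 were called higher, but HOXB9 was not among them. The number was 1 without day 6 CTRL replicate 1 and 2 without day 4 replicate 1 or day 6 CTRL replicate 3. No gene of paralog groups 10 to 13 reached a level that could be tested.

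Lists of general cell functions had calls in both directions, and their counts moved with single libraries. Among 27 cell cycle and DNA replication genes, 5 rose and 3 fell, against 21.6% of all genes called. Those higher were CCNE1, CDKN1B, CDKN1C, CDKN2B and MCM7, and those lower CCND1, MCM3 and MCM4. The number higher was 3 without day 4 replicate 1 or day 6 CTRL replicate 1 or 3. The number lower was 5 without day 4 replicate 3 and 1 without day 4 replicate 1 or day 6 CTRL replicate 2 or 3. CCNE1 (cyclin E1) rose by 1.07 (SE 0.14, adjusted p = 0.000376, edgeR), whereas CCND1 (cyclin D1) fell from 111, 119 and 121 CPM to 74.8, 65.2 and 71.9 CPM (log2 fold change -0.73, SE 0.11, adjusted p = 0.00108, edgeR). Of 20 cholesterol synthesis genes, 2 fell and none was called higher by edgeR or DESeq2, with 2 higher at an unadjusted p under 0.05. Without day 4 replicate 3, 4 of them were called higher and 5 lower, and 1 was called lower without day 4 replicate 1 or day 6 CTRL replicate 2 or 3. Of 23 glycolysis and hypoxia genes, 2 rose and 2 fell. Without day 4 replicate 3 these counts were 4 and 5. With another library left out, 1 or 2 were called higher and between 0 and 2 lower, the number higher being 1 without day 6 CTRL replicate 1 or 2 and the number lower 0 without day 4 replicate 1 or day 6 CTRL replicate 1 or 3. None of the 13 mitochondrially encoded mRNAs was called by edgeR or DESeq2 with all libraries, and none had an unadjusted p under 0.05 by edgeR, but 10 were called lower without day 4 replicate 3, in which their sum was 8957 CPM against 29740 and 38270 CPM.

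Of 1245 transcription factor genes tested, 172 rose and 121 fell, which is 23.5% and near the share of all genes. By family, 42.9% of 70 basic helix-loop-helix, 34.0% of 97 homeobox and 46.2% of 13 T-box genes were called, against 14.2% of 550 C2H2 zinc finger genes. These shares are descriptions without a test.

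To ask whether a change was particular to these 2 days, the step from day 4 to day 6 was compared with the step from day 6 CTRL to day 8 CTRL in 1 model over 9 libraries. Both steps share the day 6 CTRL libraries. The second step had calls for 16.6% of 19154 genes tested, and its count fell from 3176 to 1659 without day 8 CTRL replicate 1 or 3. The steps differed for 7.71% of 19569 genes tested, with the first step more positive for 865 genes and more negative for 643. This count of 1508 was 3579 without day 4 replicate 3, 943 without day 4 replicate 1, between 651 and 855 without a day 6 CTRL library and between 753 and 994 without a day 8 CTRL library. Of the 865, the group means of days 4, 6 and 8 were highest at day 6 for 610 and rose in both steps for 251. Of the 643, they were lowest at day 6 for 484 and fell in both steps for 146. The difference of the steps sets day 6 against days 4 and 8, so the selection itself favours genes highest or lowest at day 6. These counts describe the shapes and are not a separate result.

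Of the 20 FGF and ERK feedback genes, 10 were more negative in the first step and none more positive by edgeR. DUSP6 changed by -2.17 in the first step and by -0.41 in the second (difference -1.75, SE 0.25, adjusted p = 0.000783, edgeR). FGF8 changed by -3.52 and -0.29 (difference -3.23, SE 0.65, adjusted p = 0.0089, edgeR). In the WNT target list, 4 of 17 genes were more negative in the first step, among them LEF1 (-1.27 and -0.27, adjusted p of the difference = 0.00298, edgeR). DKK1 and LGR5 went on falling, by 1.80 and 1.66 in the second step, and the steps did not differ for them by the test (adjusted p = 0.935 and 0.601, edgeR).

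WT1 rose in both steps, from a mean of 0.0116 CPM at day 4 to 24.2 CPM at day 6 and 81.0 CPM at day 8. On the log2 scale, but not in CPM, the first step was larger (adjusted p of the difference = 1.35e-07, edgeR). It started from 1 count over the day 4 libraries. TBX18 also rose in both, by 6.75 and then 2.06 on the log2 scale (difference 4.70, SE 0.52, adjusted p = 0.000152, edgeR). Its means at days 4, 6 and 8 were 0.156, 16.6 and 68.5 CPM. The change of TBX20 was 4.64 and then 0.22 (difference 4.42, SE 0.64, adjusted p = 0.000988, edgeR). The endothelial list had 7 genes more positive in the first step and none more negative.

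POU5F1 fell in both steps, by 4.84 and 2.41 (adjusted p of the difference = 0.0162, edgeR). GATA2, a factor of blood, endothelium and amnion, had a higher mean at day 6 than at day 4 or day 8. It rose by 1.80 and then fell by 0.81 (difference 2.62, SE 0.38, adjusted p = 0.00102, edgeR). Its day 12 and day 14 CTRL means, 13.5 and 12.1 CPM, were above its day 6 mean of 10.8 CPM. The mean of DLL3 was lowest at day 6, falling by 1.82 and then rising by 0.87 (difference -2.69, SE 0.34, adjusted p = 0.000356, edgeR). All 7 of 20 cholesterol synthesis genes for which the steps differed were more positive in the first step.

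**Figure D3:**
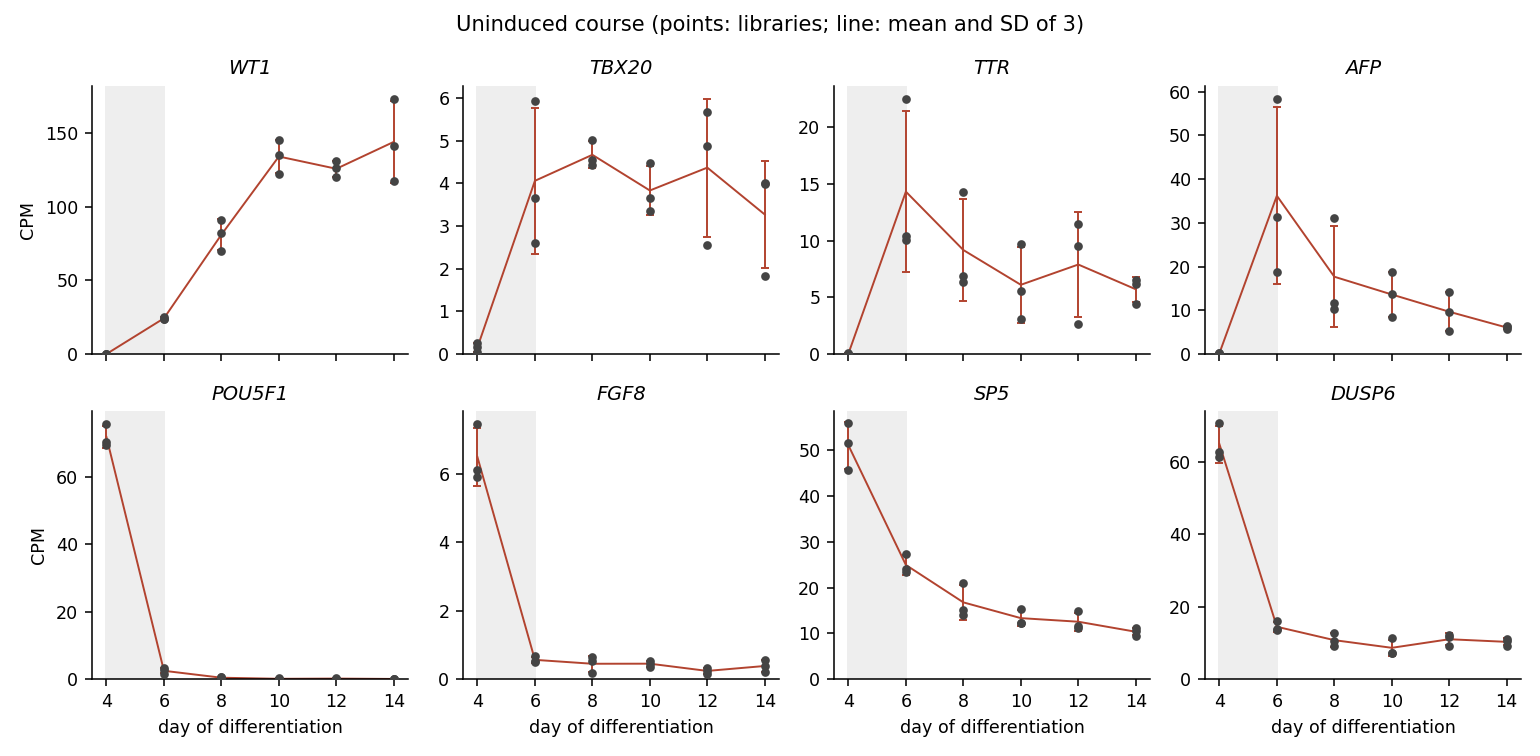
CPM of 8 genes in the uninduced libraries on each sampled day from day 4 to day 14, with points for libraries, a line through the means and bars for the SD of 3, and the step described here shaded. WT1 rises further after day 6, POU5F1, FGF8 and DUSP6 stay low from day 6, and the means of AFP and TTR are highest at day 6.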

How the data were processed

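Poly(A)-selected, non-directional libraries of 1 differentiation were sequenced for the authors. Per the labels and the study's methods, reads were trimmed with fastp 0.23.2, mapped to GRCh38 with HISAT2 2.0.5 and assigned to genes with featureCounts 1.5.0-p3. The deposited counts are unnormalized fragments per gene. The deposited FPKM, scaled by gene length and library by the authors, were used only for an alternative.

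The filter was filterByExpr and the scaling TMM, followed by the robust quasi-likelihood test of edgeR 4.0.16 (R 4.3.3) with Benjamini-Hochberg adjustment over all genes tested and a threshold of 0.05. CPM were set on 1 TMM scale over 33 libraries, so they compare 1 gene between libraries and not genes with each other. SE were derived from the F statistic. CPM are counts scaled to the effective size of each library. Where a group had counts but at most 3 in each library, the ratio of summed counts is given with an exact 95% binomial interval, which covers counting error only. The tests were checked on simulated data. Alternatives used DESeq2 1.42.0, limma 3.58.1 on log2(FPKM + 1), other filters and scalings, a replicate block and each library left out.

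The gene lists, the comparison and the genes named were chosen with earlier results of these data known. Named genes are 67 fixed genes, the largest non-overlapping changes of protein-coding genes (10 per direction) and long non-coding RNAs (3), up to 2 called genes per list and direction, called HOX genes and the 5 largest step differences per direction. SFRP1, NOTUM, SPRY1, DNMT3B, SALL4, BNC1, GATA5, MEF2C, FOXF2, TEK, FLI1, KDR, FOXD3, APOA1, APOA2, HOXB8 and HOXB9 were added from the lists after their values were seen. So were SOX17, HNF4A, FOXA3, PAX6, SOX1, NES, ZIC2, CDKN1B, CDKN1C, MCM7 and MCM4. A few genes named by this rule are not reported here. RefSeq promoter windows (GRCh38.p14) matched 12063 of 18310 genes tested, under 80%, so motif shares were not compared between called and other genes.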

Additional observations from a re-analysis of the deposited data

Results flagged for a closer look

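These genes are given because their step from day 4 to day 6 differed, by the test of the difference in 1 model, from their step from day 6 CTRL to day 8 CTRL, with the largest estimates in each direction. On the log2 scale the first step minus the second was 9.19 for TTR, 8.91 for WT1, 8.71 for AFP, 8.39 for FGB and 8.11 for CD93 (adjusted p = 8.72e-05, 1.35e-07, 0.00108, 0.000257 and 3.74e-05, edgeR). WT1, CD93 and TTR had 1, 1 and 3 counts over the day 4 libraries, so their sizes depend on the prior count of the fit. AFP and FGB had 15 and 22 counts. In the other direction it was -6.37 for NELL1, -6.26 for STMN2, -5.08 for HGF, -4.33 for IL6R and -4.12 for ALKAL2 (adjusted p = 4.49e-05, 0.00667, 0.00106, 0.00328 and 0.00321, edgeR).

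NELL1, a secreted protein of bone and cartilage, had 1.82, 1.18 and 0.679 CPM at day 4, 0.363, 0.506 and 0.625 CPM at day 6 and a mean of 17.2 CPM at day 8. IL6R, the interleukin 6 receptor, had 1.56, 3.12 and 0.97 CPM at day 4, 0.756, 0.718 and 1.51 CPM at day 6 and a mean of 10.7 CPM at day 8. NELL1 and IL6R were not called between day 4 and day 6 (adjusted p = 0.0857 and 0.205, edgeR). Both passed that test without day 4 replicate 3, and NELL1 also in 1 fit over 33 libraries. HGF, the ligand of MET, had 3.78, 3.99 and 2.97 CPM at day 4, 0.181, 0.585 and 0.889 CPM at day 6 and a mean of 3.00 CPM at day 8, so that its lowest level was at day 6. ALKAL2, a ligand of the receptor ALK, had a mean of 3.84 CPM at day 8 after 0.514, 0.772 and 0.865 CPM at day 6.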

How the results depend on the processing

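Of 3963 genes called between day 4 and day 6 CTRL, the count was 1663 (1078 higher, 585 lower) when a 2-fold change was also required, and between 2312 and 5673 with 1 library left out (1218 to 2881 higher and 1094 to 2792 lower). DESeq2 called 4406 genes, of which 3901 were shared, and each shared call had the same sign. The second step had 3176 calls, 1435 in 1 fit over 33 libraries, 741 with that requirement and between 1659 and 3727 with 1 library left out. The step difference had 1508 calls and between 651 (without day 6 CTRL replicate 3) and 3579 (without day 4 replicate 3) with 1 library left out. Same-numbered day 4 and day 6 libraries correlated by 0.00286, 0.237 and 0.082 in their deviations, and not every library correlated best with its own number, so the numbers were not treated as pairs. A replicate block gave 4791 calls, 3669 for the second step and 1827 for the step difference. No named gene reversed its direction in any alternative in which it was called. The median shift of the genes against the main fit was at most 0.0143 on the log2 scale, with a mean of at least 50 counts required. With the other scaling of libraries (RLE) it was -0.00469. Both scalings centre most genes near no change, so these shifts do not bear on the balance of rises and falls. In 1 fit over 33 libraries 56.6% of calls were higher, against 50.8%. CDX2, LIN28A, FOXA2, HOXB1 and SOX17 missed the threshold in 1 fit over 33 libraries (adjusted p = 0.0615, 0.0584, 0.248, 0.185 and 0.112, edgeR). AXIN2 and FOXA2 missed it with a mean of at least 50 counts required, and AXIN2, FOXA2 and TCF21 by limma on FPKM. STMN2 missed it without a low-count filter (adjusted p = 0.0518, edgeR). Depth limits genes such as NANOG, NR5A1 and EOMES, for which a change was not detectable.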

Other observations

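Among long non-coding RNAs, AC073174.2 rose from 0.545, 0.277 and 0.42 CPM to 13, 15.7 and 15.96 CPM (log2 fold change 5.16, SE 0.27, adjusted p = 6.91e-07, edgeR). MIR1-1HG-AS1, a transcript antisense to the host of the muscle microRNA miR-1, rose from 2.00, 1.46 and 1.58 CPM to 37.7, 28.2 and 22.1 CPM (log2 fold change 4.12, SE 0.25, adjusted p = 1.59e-06, edgeR). LINC00458, a transcript of pluripotent cells, fell from 14.2, 16.4 and 5.63 CPM to 2.45, 1.01 and 0.865 CPM (log2 fold change -3.09, SE 0.46, adjusted p = 0.00092, edgeR). Of 883 lincRNA genes tested 66 rose and 63 fell (14.6%), and of 522 processed pseudogenes 6 rose and 46 fell (9.96%). The share of all genes tested was 21.6%.

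Of the trophoblast and amnion list, 6 of 12 genes were tested. TFAP2C and IGFBP3, the latter an IGF-binding protein found in many tissues, rose by 1.34 and 2.50 (adjusted p = 0.000563 and 1.88e-06, edgeR), while KRT7 and GABRP fell by 2.19 and 1.98 (adjusted p = 1.35e-05 and 0.00142, edgeR).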
